A study of Mus musculus with 2 samples.

Results

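The proteasome is the protease complex that degrades ubiquitin-tagged proteins, and its interferon-inducible form, the immunoproteasome, makes peptides for MHC class I. Its genes were followed in nuclear RNA of mouse macrophages stimulated repeatedly with lipid A. Members were all genes whose symbol starts with Psm, a letter from a to g and a digit, with at least 1 protein-coding transcript and no pseudogene suffix. The rule found 50 genes among 22028 protein-coding genes and 55536 genes in all. They comprise 8 alpha ring genes, 11 beta ring genes, 6 ATPase genes, 14 Psmd genes, 5 activator genes, 1 inhibitor gene, 4 assembly chaperone genes and Psmc3ip. Psmc3ip meets the symbol rule but encodes a meiotic recombination factor and no proteasome subunit.

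RNA was taken from the nucleoplasmic fraction of macrophages grown in culture from the bone marrow of C57BL/6J mice (primary cells), and ribosomal RNA was depleted before sequencing. The cells were exposed to 100 ng/ml lipid A for 12 h, washed out for 12 h and exposed again to 100 ng/ml lipid A for 90 min. Lipid A is the anchor of bacterial lipopolysaccharide and the ligand of TLR4. The libraries form 1 group of 2 replicates, labelled biological but with the same donor entry, so their spread may be technical. Sex and age were not collected. Replicate 1 was made from 1 µg and replicate 2 from 500 ng of RNA, both with a size range of 250 to 400. Untreated or singly stimulated cells and other cell fractions were not analysed here, so the values are levels within this condition and not induction. With 1 group no test between conditions was possible and no p-value was computed.

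The core of the proteasome is a barrel of alpha and beta rings, with the proteolytic sites on 3 kinds of beta subunit inside. A regulatory particle with a ring of ATPases and many Psmd subunits binds ubiquitin chains, removes them and feeds the unfolded substrate into the barrel. Interferon replaces the constitutive catalytic subunits Psmb5, Psmb6 and Psmb7 with Psmb8, Psmb9 and Psmb10 in newly made particles, and induces the activator subunits Psme1 and Psme2. Macrophages carry both forms, and the change of catalytic subunits alters which peptides reach MHC class I. The transcription factor Nfe2l1 raises proteasome genes together when proteasome activity is low, through antioxidant response elements.

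Gene counts summed to 29400104 in replicate 1 and 17789543 in replicate 2. All 8 macrophage markers examined reached at least 1 TPM (a transcript's share of the library scaled for its length) in both libraries. None of the 5 neutrophil, 4 B cell, 4 T cell, 4 dendritic cell and 4 stromal and endothelial markers did, and Elane, Ly6g, Cd3e and Cd3g were at 0 counts in both (first quantification). In the second, the T cell marker Cd3d passed, at 1.24 and 4.58 TPM, against 0 and 1 counts in the first. The summed TPM of the macrophage markers was 1528 in replicate 1 and 2127 in replicate 2. Those of the other lists were 0.78 and 1.06 for neutrophils, 0.15 and 0.49 for B cells, 0.01 and 0.03 for T cells, 1.6 and 1.64 for dendritic cells, and 0.47 and 0.57 for stromal and endothelial cells. TPM sums are not on an equal footing between the libraries, since all protein-coding genes summed to 204010 in replicate 1 and 303496 in replicate 2. On the scaled counts used for ratios below, 5 macrophage markers were higher in replicate 1 and 3 lower. In bulk RNA, fewer cells of a type and less RNA per cell cannot be told apart.

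Promoters are shown for 4 genes whose levels or ratios the results below turn on and that hold a searched motif. They are RefSeq windows on GRCm38.p6, from 250 bases before to 50 bases after the annotated start, printed 5′ to 3′ on the gene's strand. Capitals mark the motif. Psmb8, the immunoproteasome gene for the chymotrypsin-like site, lies at chr17:34197945-34198244 on the plus strand, with the interferon-gamma activated site form TTCNNNGAA starting 97 bases before the start. Psmb5, its constitutive counterpart, lies at chr14:54617946-54618245 on the minus strand, with the antioxidant response element core TGACNNNGC starting 47 bases before the start. Psme1, an activator subunit gene, lies at chr14:55578244-55578543 on the plus strand, with the interferon-stimulated response element core GAAANNGAA on the opposite strand, starting 10 bases after the start. Psmb6, the constitutive gene for the caspase-like site, lies at chr11:70525107-70525406 on the plus strand, with TGACNNNGC starting 9 bases before the start. The Psmb8 and Psme1 windows lie downstream of the GENCODE gene starts at 34197721 and 55578123.
Psmb8: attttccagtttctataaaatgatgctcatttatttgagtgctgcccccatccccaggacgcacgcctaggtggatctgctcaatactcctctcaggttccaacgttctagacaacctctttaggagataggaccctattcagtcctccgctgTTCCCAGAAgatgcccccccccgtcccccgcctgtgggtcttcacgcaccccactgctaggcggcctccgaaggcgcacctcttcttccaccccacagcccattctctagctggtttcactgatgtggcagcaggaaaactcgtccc
Psmb5: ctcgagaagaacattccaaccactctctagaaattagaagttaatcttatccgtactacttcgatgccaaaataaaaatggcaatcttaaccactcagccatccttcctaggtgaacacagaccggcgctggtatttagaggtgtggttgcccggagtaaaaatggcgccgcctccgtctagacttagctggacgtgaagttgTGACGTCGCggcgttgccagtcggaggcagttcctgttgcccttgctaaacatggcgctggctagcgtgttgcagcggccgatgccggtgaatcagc
Psme1: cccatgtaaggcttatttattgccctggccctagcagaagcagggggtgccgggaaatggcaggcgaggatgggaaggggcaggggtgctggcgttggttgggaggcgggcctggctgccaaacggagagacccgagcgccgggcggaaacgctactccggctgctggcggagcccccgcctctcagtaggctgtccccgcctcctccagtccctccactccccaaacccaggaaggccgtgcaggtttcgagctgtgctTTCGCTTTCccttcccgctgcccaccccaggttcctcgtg
Psmb6: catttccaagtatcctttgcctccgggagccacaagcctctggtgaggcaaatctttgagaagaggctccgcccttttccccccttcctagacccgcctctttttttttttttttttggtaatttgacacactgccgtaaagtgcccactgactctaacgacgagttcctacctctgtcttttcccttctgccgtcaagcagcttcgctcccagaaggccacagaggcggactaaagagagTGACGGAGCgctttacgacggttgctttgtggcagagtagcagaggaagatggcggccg
Each motif was searched on both strands in 45 windows of 42 member genes and in 32851 windows of all genes. TTCNNNGAA was found in 3 member windows (Psmb8, Psmd2 and Psmg1) and in 8.3% of all windows. GAAANNGAA was found in 7 member windows (Psmb3, Psmb4, Psmc2, Psmd4, Psmd9, Psme1 and Psmg4) and in 8.56% of all. TGACNNNGC was found in 6 member windows (Psmb5, Psmb6, Psmc6, Psmd12, Psmd9 and Psme4) and in 12.4% of all. A match is a description of letters and not a bound site, and these letters were in none of the Psmb9, Psmb10 and Psme2 windows.

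Proteasome genes were expressed broadly in the nucleoplasmic RNA. Of the 50 members, 46 (92%) reached 1 TPM in both libraries, against 8512 (38.6%) of 22028 protein-coding genes. Their median level was 14.0 TPM ± 0.516 (SD of the library medians, n = 2), with 14.4 TPM in replicate 1 and 13.7 in replicate 2. Among the 48 members whose mean count was 10 or more the median was 14.2 TPM, against 4.23 TPM for the 11368 protein-coding genes that met the same minimum. All members together held 48471 counts (0.165% of gene counts) in replicate 1 and 23248 (0.131%) in replicate 2. Across 49 members detected, log2 TPM in the replicates had a Pearson r of 0.969 and a Spearman rho of 0.932. This describes agreement across genes, which are not independent replicates. Between the quantifications the mean levels had an r of 0.974 and a rho of 0.961. The second gave lower TPM for most members, with a median of 8.79 TPM, and Psmd14, Psma2, Psme4, Psmg1 and Psmb11 were the exceptions. Psmd14 had 20.2 and 37.9 TPM there.

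The 5 interferon-inducible members (Psmb8, Psmb9, Psmb10, Psme1 and Psme2) had a median level of 53.1 TPM, against 13.4 TPM for the other 45. They held 35.8% of the members' summed TPM in replicate 1 and 30.6% in replicate 2. The order of levels ran from Psme2 and Psme1 over Psmb6, Psmb10 and Psmd8 down to the assembly chaperones, Psma8 and Psmb11. These levels and shares sum all isoforms, and those of Psme2 and Psme1 rested partly on short isoforms, as given below. On protein-coding isoforms alone the median of all members was 8.36 TPM. Psmb8 had 8.86 and 4.94 TPM there, Psmb9 9.63 and 7.23, and Psmb10 13.2 and 8.14, so each lay on both sides of that median. Psme1 had 21.9 and 17.6 TPM and Psme2 67.0 and 26.2, above it in both libraries.

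**Figure D1:**
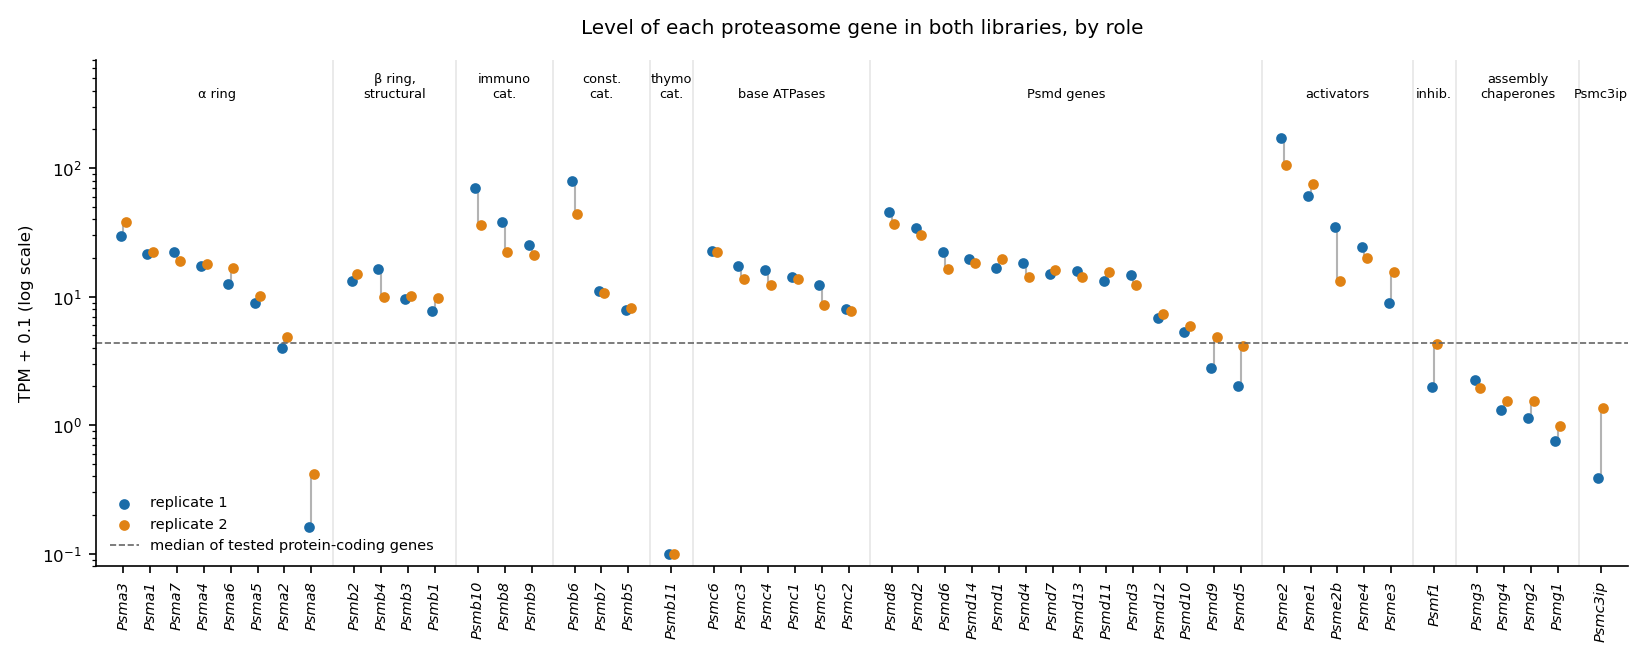
Level of each of the 50 genes in TPM + 0.1 on a log axis, with a point per library and genes grouped by role. The highest values belong to Psme2, Psme1, Psmb6 and Psmb10, the 4 assembly chaperones lie below the dashed median of protein-coding genes tested (4.23 TPM), and Psmb11 is listed at 0.

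The 7 general alpha ring genes spanned mean levels of 4.3 to 33.8 TPM, and the testis gene Psma8 lay near 0. Psma3, an alpha subunit gene, was the highest at 29.6 TPM in replicate 1 and 38.0 in replicate 2, followed by Psma1 at 21.5 and 22.1. Psma2 was the lowest of the 7 general alpha genes, at 3.88 and 4.72 TPM. Between them, Psma7 had 22.2 and 18.9 TPM, Psma4 17.4 and 18.0, Psma6 12.4 and 16.5, and Psma5 8.76 and 10.1. The values of Psma1 and Psma2 lay far apart, so subunits that occur in equal number in the ring did not have equal TPM in this fraction. In the second quantification Psma1 had 12.3 and 19.2 TPM and Psma2 4.43 and 6.76. The gap was narrower in counts, which are not divided by length, at 898 and 499 against 464 and 329. Psma8, which replaces Psma7 in male germ cells, had 4 and 3 counts (0.06 and 0.32 TPM), at or little above the 3 counts taken as the floor. The values of Psma1 and Psma7 overlapped, and those of Psma4 and Psma6 did not.

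Structural beta genes lay closer together. Psmb2 had 13.2 and 14.8 TPM and Psmb4 16.4 and 9.8 TPM in replicates 1 and 2. Psmb3 had 9.49 and 10.1 TPM and Psmb1 7.56 and 9.72 TPM. The mean levels of the 4 genes, all of them non-catalytic parts of the ring, ranged from 8.64 to 14.0 TPM. The order of Psmb2 and Psmb4 differed between the libraries.

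Among catalytic beta genes, the immunoproteasome gene was higher than its constitutive counterpart at the chymotrypsin-like and trypsin-like positions and lower at the caspase-like position. Psmb8 had 38.2 TPM in replicate 1 and 22.1 in replicate 2, against 7.83 and 8.01 TPM for Psmb5. Psmb10, for the trypsin-like site, had 70.5 and 35.7 TPM, against 11.0 and 10.6 TPM for Psmb7. Psmb9 had 24.9 and 21.1 TPM, against 79.2 and 43.5 TPM for Psmb6. The values of the genes of a pair did not overlap at any position. As log2 differences, immunoproteasome minus constitutive with a pseudocount of 0.1 TPM, these were 1.86 ± 0.58 for Psmb8 and Psmb5, 2.21 ± 0.65 for Psmb10 and Psmb7, and -1.35 ± 0.44 for Psmb9 and Psmb6 (mean ± SD, n = 2). As ratios, Psmb8 was 4.88-fold Psmb5 in replicate 1 and 2.76-fold in replicate 2, and Psmb10 was 6.41-fold and 3.39-fold Psmb7. Psmb9 stood at 0.315 and 0.484 of Psmb6. In the second quantification the log2 differences were 1.79, 2.35 and -1.26.

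Summed over the 3 positions, the immunoproteasome genes held 133.6 and 78.9 TPM, against 98.0 and 62.1 TPM for the constitutive genes. That is an immunoproteasome share of 57.7% and 56.0% in replicates 1 and 2, and of 58.2% and 57.0% in the second quantification. This balance depended on which isoforms were counted. On protein-coding isoforms alone, Psmb8 had 8.86 and 4.94 TPM against 7.83 and 8.01 TPM for Psmb5, a log2 difference of -0.26 ± 0.61 whose sign differed between the libraries (0.18 and -0.69). Psmb10 remained above Psmb7 there, at 13.2 and 8.14 against 8.45 and 5.31 TPM (log2 difference 0.62 ± 0.02), and Psmb9 below Psmb6, at 9.63 and 7.23 against 31.4 and 21.9 TPM (-1.64 ± 0.08). The immunoproteasome share on protein-coding isoforms was 39.9% and 36.6%. A total read from whole genes and one read from coding isoforms therefore fall on different sides of equality in these libraries.

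**Figure D2:**
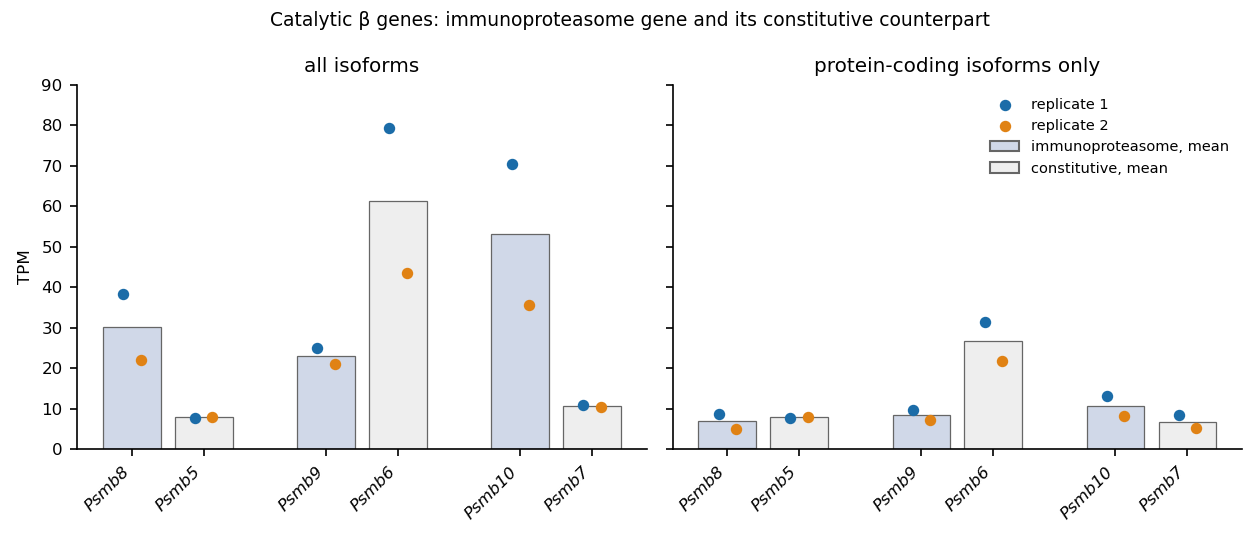
TPM of each immunoproteasome gene (left of a pair) and its constitutive counterpart (right), with bars for the mean and points for the 2 libraries. The left panel sums all isoforms and the right panel protein-coding isoforms only, where the Psmb8 mean lies close to that of Psmb5 and Psmb6 is the highest.

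The isoform tables show where the difference lies. Both annotated isoforms of Psmb5 are protein-coding, so all of its TPM counted as coding. Psmb8 had 77.2% ± 0.565 (n = 2) of its TPM on 4 retained-intron isoforms, of which Psmb8-205 alone held 50.3% in replicate 1 and 41.4% in replicate 2. Psmb10 had 53.7% and 45.2% of its TPM on Psmb10-203, a processed transcript of 426 bases that took 380 and 86.5 of its counts. Its coding isoform, Psmb10-201 (1311 bases), took more counts, 700.8 and 230.2, but only 18.7% and 22.8% of TPM, since TPM divides by length. Psmb9-201, a retained-intron isoform of 2884 bases, held 1205 and 619.9 counts, more than the coding Psmb9-204 with 425.8 and 189.5.

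Psmb10 (ENSMUSG00000031897.9) lies on chromosome 8, 105935735 to 105938444, on the minus strand, and Psmb6 (ENSMUSG00000018286.6) on chromosome 11, 70525367 to 70527858, on the plus strand (mm10). Psmb8 (ENSMUSG00000024338.15) and Psmb9 (ENSMUSG00000096727.3) lie within the MHC region of chromosome 17 (mm10), Psmb9 at 34181987 to 34187764 on the minus strand and Psmb8 at 34197721 to 34201454 on the plus strand. Tap1, a subunit of the peptide transporter, lies between them at 34187553 to 34197225 and overlaps Psmb9 by 212 bases on the other strand. Tap1 had 131.7 and 89.4 TPM, and since the counting's strand setting is not given in the sources used here, reads from the shared bases cannot be assigned by strand. Psmb11, the catalytic gene of the thymus cortex, lies near Psmb5 on chromosome 14. It was listed at 0 counts in both libraries of the first quantification and at 0.471 and 1.10 TPM in the second.

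The 6 ATPase genes, whose products form the ring that unfolds substrates, were all expressed above 7 TPM, with the highest and lowest farther apart than their replicates. Psmc6 was the highest at 22.5 and 22.2 TPM in replicates 1 and 2, followed by Psmc3 at 17.1 and 13.7. Psmc2 was the lowest at 7.96 and 7.66 TPM, preceded by Psmc5 at 12.3 and 8.51. Psmc4 had 15.9 and 12.3 TPM and Psmc1 14.2 and 13.7. The mean levels spanned 7.81 to 22.3 TPM with a group median of 14.0 TPM, and Psmc1 and Psmc4 lay within their spread of each other.

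The Psmd genes encode the ATPase-free subunits of the regulatory particle and 3 chaperones that help build its base. Psmd8, a lid subunit gene, was the highest at 45.8 and 36.5 TPM, and Psmd2, a base scaffold and ubiquitin-receptor gene, followed at 34.2 and 30.3. Psmd14, the deubiquitinase that removes the chain from the substrate, had 19.5 and 18.3 TPM. Psmd4, a ubiquitin receptor, had 18.0 and 14.1 TPM. Among lid genes, Psmd6 had 22.0 and 16.2 TPM, Psmd7, the structural partner of Psmd14, 14.9 and 16.1, and Psmd13 15.8 and 14.2. Psmd3 had 14.7 and 12.2 TPM, Psmd11 13.0 and 15.5, and Psmd12 6.68 and 7.25. Psmd1, the other base scaffold gene, had 16.5 and 19.6 TPM, within the range of most lid genes. The base chaperone genes Psmd5, Psmd9 and Psmd10 were the lowest 3 of the 14. Psmd5 had 1.93 and 4.06 TPM, Psmd9 2.69 and 4.73, and Psmd10, also known as gankyrin, 5.2 and 5.81. All other Psmd genes averaged at least 6.96 TPM, and the group median was 15.2 TPM.

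The activators, which cap the barrel in place of the regulatory particle, included the highest 2 members by mean level in the first quantification. Psme2 had 171.7 TPM in replicate 1 and 105.5 in replicate 2, and Psme1, its partner in the ring induced by interferon, had 60.9 and 75.0 TPM. Both lie on chromosome 14 (mm10), Psme1 at 55578123 to 55581529 on the plus strand and Psme2 at 55587441 to 55591113 on the minus strand. Psme3, the activator of the nucleus, had 8.89 and 15.4 TPM, and Psme4, a large nuclear activator linked to acetylated histones, had 24.1 and 20.0 TPM. Psme3 was the lowest of the 5 in replicate 1, and in replicate 2 Psme2b was.

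High TPM of Psme2 and Psme1 rested partly on short isoforms. Psme2-203, a retained-intron isoform of 185 bases, held 43.7 and 39.1 TPM from 29.9 and 12.0 counts, which was 25.4% and 37.1% of the gene's TPM. In replicate 1 the coding isoform Psme2-201 held 729.2 counts, and in replicate 2 it was at 0. Psme1-209, annotated for nonsense-mediated decay, had 44.8 counts (4.2 TPM) in replicate 1 and 269.8 counts (47.4 TPM) in replicate 2. In the second quantification Psme2 had 103.8 and 78.4 TPM and Psme1 24.2 and 36.3 TPM, with Psme2 again the highest member. Psme1 had a mean of 30.26 TPM there, below Psmb6 at 33.85 and Psmb10 at 31.71. Protein-coding isoforms of Psme2 summed to 67.0 and 26.2 TPM and those of Psme1 to 21.9 and 17.6 TPM.

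Psme2b is a single-isoform copy of Psme2 on chromosome 11, and the letters of both show how little separates their reads. Their coding sequences of 720 bases aligned without gaps, with 715 identical bases (99.3%) and 5 mismatches. The window of 90 bases with the most mismatches, bases 454 to 543 counted from the start codon, holds 3 of them, marked in capitals below (GENCODE M21 transcripts, 5′ to 3′).
Psme2b-201: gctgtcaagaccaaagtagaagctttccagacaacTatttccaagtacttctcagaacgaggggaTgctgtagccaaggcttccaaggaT
Psme2-208: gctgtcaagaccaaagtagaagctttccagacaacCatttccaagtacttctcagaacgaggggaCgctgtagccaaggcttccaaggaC
Of the stretches of 31 bases in Psme2b, 78.4% also occurred in transcripts of other genes, and 76.5% occurred in Psme2. Psme2b was listed at 34.7 TPM in replicate 1 and 13.1 in replicate 2, from 1043 and 209 counts. By the second quantification it had 23.1 and 19.8 TPM. Of the stretches of 31 bases in Psme2, 33.5% occurred in Psme2b. The share of the Psme2b reads that came from Psme2, or the reverse, was not tested. The values and ratios of Psme2b, and in part those of Psme2, are therefore uncertain.

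Psmf1, the gene of an inhibitor of the core that also acts as an adaptor, was low, at 1.87 TPM in replicate 1 and 4.16 in replicate 2. The 4 genes of the chaperones that assemble the alpha ring were lower still as a group, with a median of 1.29 TPM. Psmg3 had 2.16 and 1.86 TPM, Psmg4 1.21 and 1.45, Psmg2 1.04 and 1.45, and Psmg1 0.65 and 0.89. Their counts were few, from 10 to 103 per library, so the order among Psmg1, Psmg2 and Psmg4 was not resolved. Psmc3ip had 0.29 and 1.25 TPM from 14 and 30 counts.

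Partners and regulators of the proteasome gave a similar level from genes outside the symbol rule. Of 25 listed symbols 24 matched, all reached 1 TPM in both libraries, and their median was 14.4 TPM. The stress factor Nfe2l2 had the highest mean level, with 97.9 and 137.7 TPM, and the lowest were Ubqln2 at 1.59 and 2.11 and Ddi2 at 2.8 and 3.66. Nfe2l1, the activator of proteasome genes, had 56.5 and 54.8 TPM. Pomp, the chaperone that completes the core, had 11.9 and 10.2 TPM, above each of the 4 Psmg genes. The regulatory particle subunits that lack a Psm symbol, Adrm1 and Sem1, had 23.6 and 15.7, and 13.4 and 14.5 TPM.

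Isoforms annotated as retained-intron held much of the TPM of several proteasome genes. In this nucleoplasmic RNA, retained introns and unspliced precursors were not told apart. The share of a gene is how much of its TPM, in percent, fell on isoforms annotated as retained-intron. Short isoforms weigh more in this share than in counts, as with Psme2-203 of 185 bases (43.7 and 39.1 TPM from 29.9 and 12.0 counts). Genes entered with a minimum of 1 isoform of each kind, retained-intron and protein-coding, and of 1 TPM in each library. Among the 31 members that qualified the median share was 35.2%, with 38.7% in replicate 1 and 33.7% in replicate 2. Over all 5524 genes that qualified it was 30.9%, with 28.8% in replicate 1 and 32.6% in replicate 2. A share above 50% was found in 8 of the 31 members (25.8%) and in 1125 of all genes (20.4%). The members thus lay near the level of all genes, with medians closer in replicate 2 than in replicate 1.

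The highest shares among members of at least 5 TPM belonged to genes of different roles. Psmb8 had 76.8% in replicate 1 and 77.6% in replicate 2, and Psme2 had 61.0% and 75.1%. Psma3 had 76.0% and 47.8%, Psmb9 56.5% and 64.3%, Psmd6, a lid subunit gene, 64.8% and 55.8%, and Psmb6 60.4% and 49.7%. The 3 immunoproteasome genes did not share a level, since Psmb10 had 27.7% and 32.0%. Psme1 differed most between the libraries, at 57.2% and 13.3%. At the other end Psmc1 had 1.90% and 3.71%, but 24.6% and 14.0% in the second quantification, where Psmd9 was the lowest at a mean of 12.2%. The members' median in that quantification was 43.2%, with Psme2 at 87.1% and 94.6%. A median over all genes is not given for the second quantification.

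**Figure D3:**
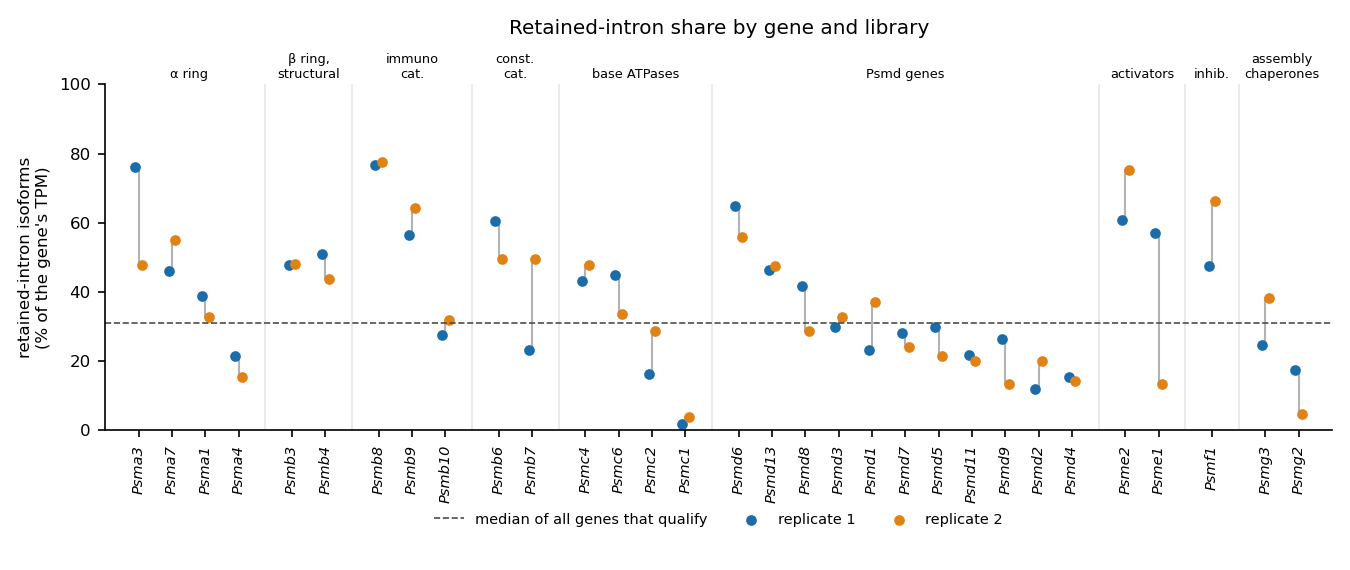
Percent of each gene's TPM on retained-intron isoforms, with a point per library, for the 31 members that qualified, grouped by role. Points spread on both sides of the dashed median over all genes that qualified (30.9%), with Psmb8 at the top in both libraries and the 2 libraries farthest apart for Psme1.

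Levels also differed between the replicates, and 3 of the 5 interferon-inducible members were among those that differed most on counts. Ratios were taken as replicate 1 over replicate 2 on counts scaled by TMM, a scaling that leaves out the most extreme genes, where the mean count was 10 or more. The median log2 ratio of the 48 members tested was 0.29, against 0.05 for the 11368 protein-coding genes tested and -0.01 for all 14831 genes tested. Replicate 1 was higher for 36 members and lower for 12, that is higher for 75% of members and for 54.0% of protein-coding genes. The 95% counting interval lay above 0 for 29 members, below 0 for 5 and across 0 for 14. Such intervals cover counting error only and not variation between cultures. The same count was not made over all genes, so these numbers do not set the members apart.

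The sign of the members' median depended on the scale. In TPM, where other RNA classes share the total, 24 members were higher and 24 lower in replicate 1, with a median of -0.01. All genes tested had a median of -0.34 on that scale. Relative to all genes, non-coding ones included, the members' median was thus 0.33 in TPM, against 0.30 with TMM, 0.30 with library totals and 0.57 in the second quantification. Protein-coding genes, the closer comparison, lay nearer to the members. Those tested had medians of 0.05 with TMM and -0.28 in TPM, against 0.29 and -0.01 for the members. In the second quantification protein-coding genes had 0.09, or 0.20 for those tested in the first, against 0.53 for the members. The members' ratios had the same sign with TMM and in TPM for 34 of 48, and in both quantifications for 42 of 48. Replicate 1 was made from more RNA and sequenced more deeply, and the part of RNA input in these ratios was not tested.

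A ratio beyond 2-fold was found for 6 of 48 members (12.5%), against 8.75% of protein-coding genes and 13.4% of all genes tested. Of these, 5 members (10.4%) were higher in replicate 1, against 5.01% of protein-coding genes, and 1 member (2.08%) was lower, against 3.74%. The 5 higher were Psme2b, Psme2, Psmb6, Psmb8 and Psmb10, of which 3 are interferon-inducible. Psme2b and Psme2 share much sequence, so their ratios are not independent. Psme2b had 1043 and 209 counts in replicates 1 and 2 (log2 ratio 1.76, interval 1.55 to 1.98). Psme2 had 3412 and 916 counts (1.34, 1.23 to 1.45), and Psmb6 2107 and 632 (1.18, 1.05 to 1.31). Psmb8 had 1928 and 590 counts (1.15, 1.02 to 1.29), and Psmb10 1580 and 483 (1.15, 1.00 to 1.30). In TPM, only Psme2b of these 5 stayed beyond 2-fold, with a log2 ratio of 1.40, and the other 4 had 0.70 to 0.98. On that scale 3 members were lower in replicate 1 by more than 2-fold, Psmc3ip (-1.79), Psmf1 (-1.11) and Psmd5 (-1.04), so the split was 1 higher and 3 lower. Over all genes tested, 2331 of 14831 were beyond 2-fold in TPM, and 15.1% of these were higher in replicate 1. The split of the members thus leaned the same way as that of all genes. With library totals Psmb8 and Psmb10 had 0.98 each, and 4 members lay beyond 2-fold. The constitutive gene Psmb6 thus had a ratio close to those of Psmb8 and Psmb10, whereas its own counterpart Psmb9 had 0.49, Psmb5 0.30 and Psmb7 0.00.

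Psmc3ip was the member lower in replicate 1 by more than 2-fold, with 14 and 30 counts and a log2 ratio of -1.62 (interval -2.69 to -0.70). The next lowest were Psmf1 at -0.71 (-0.95 to -0.47) and Psme3 at -0.60 (-0.73 to -0.47), followed by the base chaperones Psmd9 at -0.59 and Psmd5 at -0.48. These 4 genes were also lower in replicate 1 in TPM and in the second quantification. Subunit genes of the alpha ring ranged only from -0.06 to 0.42, and the 6 ATPase genes from 0.25 to 0.89.

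The median log2 ratio of the 5 interferon-inducible members was 1.15, with 0.49 for Psmb9 and 0.76 for Psme1, and all 5 were higher in replicate 1. The other 43 members tested had a median of 0.27. In TPM the inducible median was 0.70, and that of Psme1 was -0.30. Its short isoform Psme1-209 held more counts in replicate 2, as given above. In the list of 16 interferon-stimulated genes, all 16 were higher in replicate 1, with a median of 1.05 and 9 beyond 2-fold. In TPM the median of that list was 0.69, with 15 higher, 1 lower (Oasl2, 533.4 and 553.9 TPM) and 5 beyond 2-fold. Rsad2, an antiviral enzyme gene and the highest of that list, had 1040 and 453.9 TPM (log2 ratio 1.55 on counts). Among 10 class I peptide-loading genes the median was 0.34. Tap2 had 1.31, Nlrc5, the activator of class I genes, 1.13 and Tap1 0.87, against -0.59 for B2m, the class I light chain. The 24 partners and regulators had a median of 0.01, with 12 higher, 12 lower and 0 beyond 2-fold. Whether the difference in interferon-stimulated genes has a part in the ratios of the inducible members was not tested. These lists are not independent of earlier results on these libraries.

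**Figure D4:**
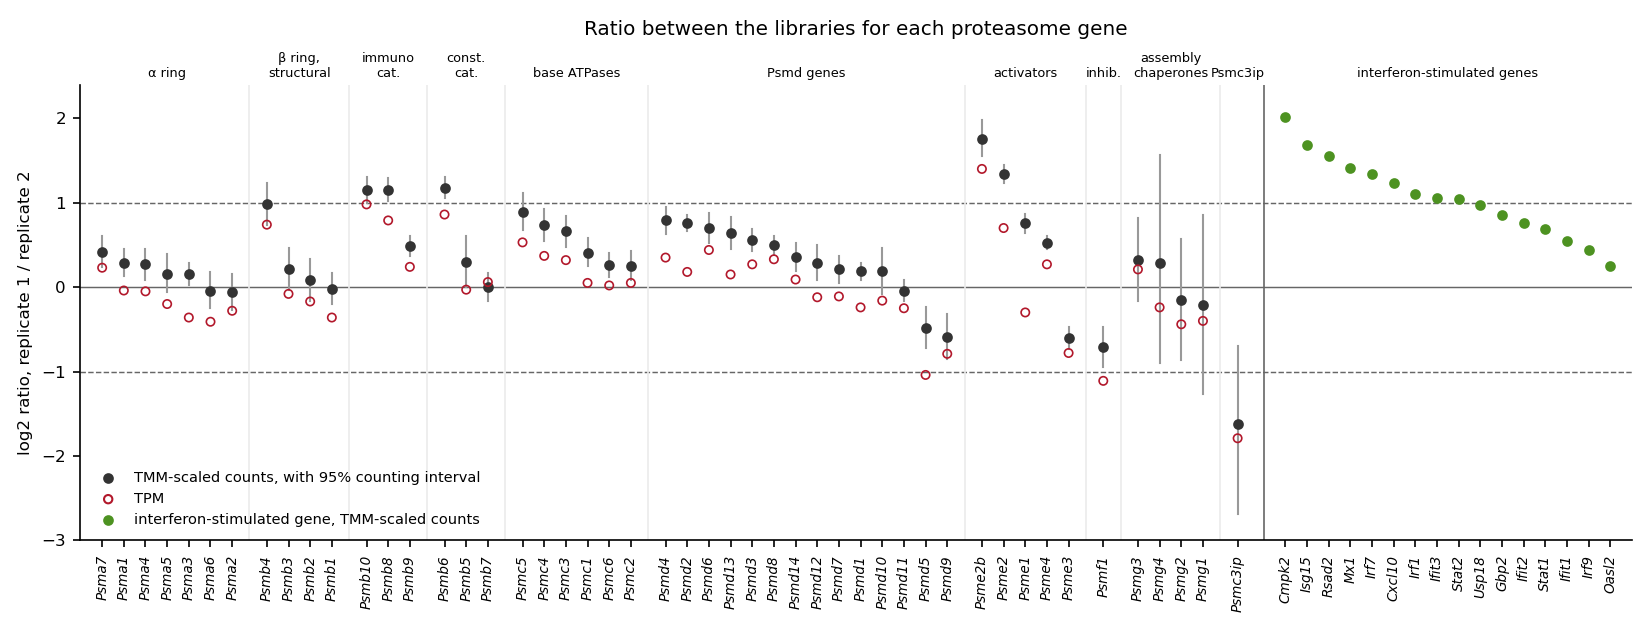
Log2 ratio of replicate 1 over replicate 2 for the 48 members tested (black, TMM-scaled counts with 95% counting interval; red rings, TPM) and for 16 interferon-stimulated genes (green). Dashed lines mark 2-fold, beyond which lie Psme2b, Psme2, Psmb6, Psmb8 and Psmb10 above and Psmc3ip below on the count scale.

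Some members share sequence with other genes, which bears on how firmly their levels can be read. Of the 50 members, 17 had no stretch of 31 bases in common with another gene's transcripts, among them Psmb9 and Psmb10. At least 10% of stretches were shared by 10 members, and more than 50% by Psme2b, Psmb5 and Psma5. Psmb5 shared 71.7%, most with the processed pseudogene Gm3375, and Psma5 shared 58.7%, most with Gm8394. Gm3375 was listed at 0 counts in both libraries and Gm8394 at 2 and 3 counts, and how the authors' model split reads among these copies is not given in the sources used here. Psma4 shared 18.2% of its stretches, and its copy Gm6542 was listed at 63 and 40 counts. Among the other catalytic genes Psmb6 shared 6.24% of its stretches, Psmb7 1.47% and Psmb8 0.378%, against none for Psmb9 and Psmb10. Counting protein-coding isoforms only lowered the TPM of Psmb6, Psmb7, Psmb8, Psmb9 and Psmb10. Psmb5 could not change there, since all its annotated isoforms are protein-coding. Psme2b, the member with the largest ratio, lies with all of its 837 bases inside the protein-coding gene Gm12185 on the same strand, which had 4.05 and 2.51 TPM. Psma3 overlaps the long non-coding gene 3110056K07Rik, with 11.2 and 11.5 TPM, over 4733 bases on the other strand. Psmc3 overlaps Slc39a13, with 24.5 and 38.3 TPM, over 4579 bases on the other strand.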

How the data were processed

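Ribosomal RNA-depleted nuclear RNA of 2 libraries of 1 group was quantified by the authors on mm10 with GENCODE M21, 1 library per table. Per the file headers, the first quantification has the column names RSEM writes and gives for each gene and transcript an expected count, in which shared reads are split by a model. The authors' TPM values sum over every feature, so abundant small RNAs lower the TPM of mRNAs. A deposited percent gives how much of a gene's TPM each transcript holds. The second quantification has kallisto's column names, per the file headers, with an estimated count and TPM per transcript, summed here per gene. Aligner, software versions and strand setting were not given in the sources used here.

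Rows that name no gene (phage control, spike-in and tRNA entries) held 0.766% and 0.272% of expected counts in replicates 1 and 2 and were left out. Expected counts were rounded. TMM factors from edgeR 4.0.16 were 0.944 and 1.06, and size factors from DESeq2 1.42.0 were an alternative. Log2 ratios used a prior count of 0.5 and genes whose mean count was 10 or more, and were tested on simulated data. Counting intervals are exact binomial 95% intervals (Clopper-Pearson). A count of 0 was read as at most 3 counts. No molecular identifiers are described, so intervals and this floor cover counting error only. Stretches of 31 bases were compared over all GENCODE M21 transcripts.

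All members may be named. Values were given for the catalytic, activator and inhibitor genes, Psma8, Psmb11 and Psmc3ip, the 2 highest and lowest of each role, the 3 largest ratios in each direction and the 6 highest retained-intron shares of at least 5 TPM. Others were named after their values were seen. The members and lists were chosen with earlier results of these data known. The listed symbol Paaf1 matched no gene. The values of 1 listed partner gene are not reported here. Alternatives were the second quantification, other scalings, filters and prior counts, protein-coding isoforms only, and leaving out each replicate.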

Additional observations from a re-analysis of the deposited data

How the results depend on the processing

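Of 78 alternative values for the ratios of 13 named members, 71 kept their sign, 49 moved by less than the reach of the counting interval to either side and 29 by more, Psme1 to -0.30 in TPM among them. The members' median of 14.0 TPM was 8.79 by the second quantification, 49.0 with TPM rescaled over protein-coding and long non-coding genes, and 8.36 on protein-coding isoforms. On such isoforms the log2 difference of Psmb8 and Psmb5 changed sign to -0.26 and that of Psmb10 and Psmb7 was 0.62. The median retained-intron share of 35.2% was 43.2% by the second quantification. The members' median log2 ratio of 0.29 was 0.53 by the second quantification and -0.01 in TPM, and the inducible members' 1.15 was 0.70 in TPM. Beyond 2-fold lay 1984 of 14831 genes, 4016 of 23904 by the second quantification and 7212 of 22426 without a filter on counts. Members among them were 6, 7 and 7. With library totals and in TPM, 2165 and 2331 of 14831 genes were beyond 2-fold. Members among these were 4 each, with Psmb8 and Psmb10 (0.98 each with totals) no longer included. Library totals and TPM moved the median of all genes to -0.18 and -0.34. Among all genes beyond 2-fold, the share higher in replicate 1 was 43.8% with TMM, 27.5% with totals and 15.1% in TPM. Single libraries gave medians of 13.7 and 14.4 TPM, and log2 differences of 1.45 to 2.27 for Psmb8 and Psmb5, -1.66 to -1.04 for Psmb9 and Psmb6 and 1.75 to 2.67 for Psmb10 and Psmb7. The causes were not tested. With 1 group of 2 libraries, neither spread between animals nor any effect of lipid A can be read from these values.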
